A study of Mus musculus with 12 samples.

Results

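The 10 genes described here mark the cells of blood vessels and were taken by symbol from the 32531 gene rows of the count tables. Of these, 7 mark endothelial cells (Cldn5, Cdh5, Slco1a4, Pecam1, Flt1, Cav1 and Thbd) and 3 mark mural cells (Pdgfrb, Vtn and Abcc9). All 10 were found in the tables and passed the filter on low counts, which kept 18128 genes. The study isolated RNA bound to ribosomes tagged with EGFP/Rpl10a in adult Slc17a6-TRAP mice of the JX883 line, a method called translating ribosome affinity purification (TRAP). The 4 groups were the hypothalamus IP (the immunopurified fraction), the hypothalamus input (RNA before the pull-down), the midbrain IP and the midbrain input, with 3 libraries each and 12 in all. Animals of every group carried the transgene, whose tag is expressed under Slc17a6, which encodes VGLUT2, the transporter that loads glutamate into synaptic vesicles of subcortical excitatory neurons. No IP from mice without the tag was analysed here. The labels do not say if a library came from 1 mouse or from several, so p-values measure the spread between these libraries, which may be technical.

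Endothelial cells line the vessels, and in the brain they form the blood-brain barrier with tight junctions, few vesicles and selective transporters. Mural cells are the pericytes of capillaries and the smooth muscle cells of larger vessels. They wrap the endothelium and are recruited by the growth factor PDGF-B, which acts on the receptor encoded by Pdgfrb. Vessels run through all brain tissue, so a whole-tissue input holds their RNA, while an IP of tagged neuronal ribosomes is made to leave it behind. The remainder, called residual share here, is the IP level in percent of the mean of the 3 input levels of the same region.

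Promoter windows from RefSeq (build GRCm38.p6, 250 bases before to 50 after the annotated start) were taken by symbol for 6 of the 10 genes, with 7 windows. Pdgfrb was left out of this search. They are shown for Cldn5 and Slco1a4, the 2 genes without a count in any hypothalamus IP library, and for Flt1, the gene whose profile over the 12 libraries lay closest to the mean of the other 9. Capitals mark AGGAAG, or CTTCCT where it lies on the other strand. It holds the GGAA core bound by ETS transcription factors, the family of the endothelial regulators Erg and Fli1.
Cldn5, chr16:18776597-18776896, plus strand: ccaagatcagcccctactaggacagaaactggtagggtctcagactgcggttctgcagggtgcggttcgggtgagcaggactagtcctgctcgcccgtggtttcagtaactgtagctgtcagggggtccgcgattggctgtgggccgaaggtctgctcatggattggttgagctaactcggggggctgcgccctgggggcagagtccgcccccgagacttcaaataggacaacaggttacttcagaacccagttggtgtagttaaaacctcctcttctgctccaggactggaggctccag
Slco1a4, chr6:141856171-141856470, minus strand: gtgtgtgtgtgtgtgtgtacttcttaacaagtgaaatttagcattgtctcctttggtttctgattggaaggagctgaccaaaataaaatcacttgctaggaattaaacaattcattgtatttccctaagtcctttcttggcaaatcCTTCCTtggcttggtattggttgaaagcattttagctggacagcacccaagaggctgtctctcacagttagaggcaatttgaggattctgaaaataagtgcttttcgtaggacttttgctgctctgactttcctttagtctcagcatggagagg
Flt1, chr5:147725962-147726261, minus strand: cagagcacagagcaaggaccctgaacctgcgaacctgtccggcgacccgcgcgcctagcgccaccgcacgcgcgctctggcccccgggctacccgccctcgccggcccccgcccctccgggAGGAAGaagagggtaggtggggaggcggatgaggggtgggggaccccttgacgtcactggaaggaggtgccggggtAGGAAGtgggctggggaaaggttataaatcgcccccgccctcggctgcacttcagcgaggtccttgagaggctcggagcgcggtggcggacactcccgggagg
The Flt1 window held 2 matches, the Slco1a4 window 1 and the Cldn5 window 0. Of the 7 windows 3 held a match, and of all 32851 promoter windows of that length 35.4% did. A match is a description of letters and not a binding site.

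Library totals lay between 41909019 and 55148109 counts over genes. Levels below are CPM, that is counts brought to a common library size, here with TMM scaling (trimmed mean of M values). Per library, a count of 3, used as the floor, came to between 0.0537 and 0.071 CPM, and floors cover counting error only. Slc17a6 itself had 3489, 1122 and 1743 CPM in the hypothalamus IP, against 518, 218 and 311 CPM in its input, and passed the test as higher in both IPs. Its log2 fold change was 2.60 in the hypothalamus (SE 0.49, edgeR adjusted p = 0.0018) and 1.82 in the midbrain (SE 0.48, edgeR adjusted p = 0.012). The ribosomal RNA precursor row Rn45s took 5.21% to 12.5% of the counts in IPs and 2.57% to 3.97% in inputs, with the highest IP values in replicate 1. Reads that fell on more than 1 gene were 2.67% to 3.19% of uniquely aligned reads in IPs and 5.77% to 21.8% in inputs, with the highest values in the replicate 1 inputs. Leaving Rn45s out changed no call of the 10 genes in any of the 5 comparisons, and the part of the ambiguous reads was not tested.

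In the hypothalamus 8 of the 10 vessel genes fell in the IP against the input, and in the midbrain 7 of 10 did, by edgeR's quasi-likelihood F test, adjusted over the genes tested after Benjamini and Hochberg. No member rose. Among the genes tested, 19.6% were called lower in the hypothalamus and 19.9% in the midbrain. The median log2 fold change of the 10 genes was -3.78 in the hypothalamus, or -3.56 with Cldn5 and Slco1a4 at their bounds, beside -0.08 over the genes tested. In the midbrain it was -3.43, beside -0.05 over the genes tested. For 9 of the 10 genes in each region every IP library lay below every input library, a pattern shared by 27.3% of tested genes in the hypothalamus and 27.8% in the midbrain. Pecam1 was the exception in both. Where regions are compared in such bulk samples, fewer cells of a type and less RNA per cell cannot be told apart.

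**Figure D1:**
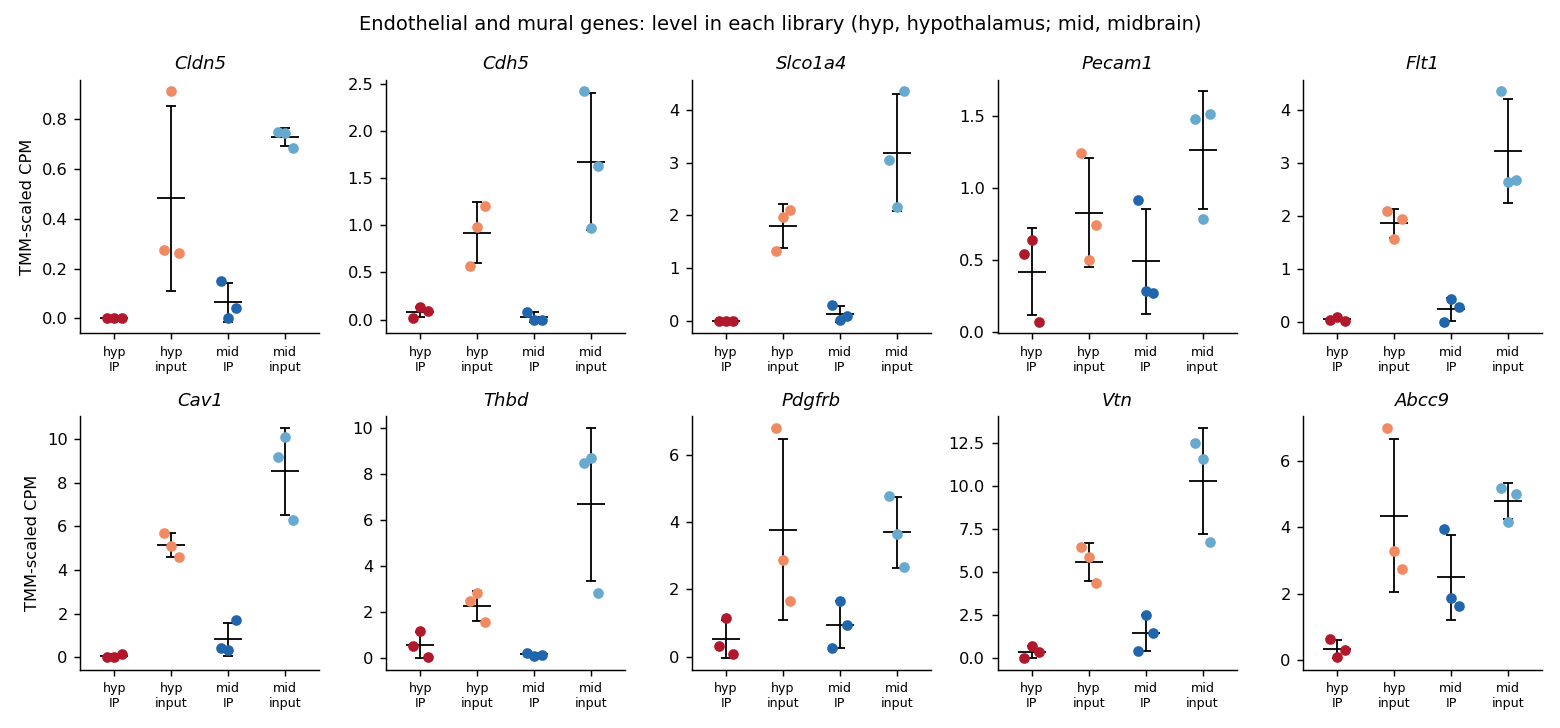
TMM-scaled CPM (vertical axis, linear) of the 10 genes in the 4 groups (horizontal axis); each point is 1 library, and the long tick and bars give mean ± SD of 3 libraries. Except for Pecam1, the 3 IP points of a region lie below its 3 input points.

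Cldn5 encodes claudin-5, the main tight-junction protein of the blood-brain barrier, and lies at chr16:18776847-18778262 in mm10. It had 0, 0 and 0 counts in the hypothalamus IP, against 13, 51 and 13 counts in the hypothalamus input. The midbrain IP held 7, 0 and 2 Cldn5 counts and the midbrain input 39, 36 and 29. These are low counts in every library, and the hypothalamus input was uneven, at 0.274, 0.913 and 0.262 CPM. Against the floor the hypothalamus IP was at least 8.43-fold lower, which allows a residual share of up to 11.9% (edgeR adjusted p = 0.0058). Without hypothalamus input replicate 2 that bound was 4.68-fold and 21.4%. In the midbrain the log2 fold change was -3.48 (SE 1.17, edgeR adjusted p = 0.043). That midbrain call was lost (adjusted p up to 0.118) when any of 8 libraries was left out: each of the 3 inputs of either region, or midbrain IP replicate 2 or 3. Without midbrain IP replicate 1 the log2 fold change was -4.98 and passed.

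Cdh5 encodes VE-cadherin, the adherens-junction cadherin of endothelium (chr8:104101625-104144511). Its level was 0.0201, 0.129 and 0.0937 CPM in the hypothalamus IP, against 0.568, 0.984 and 1.21 CPM in the hypothalamus input. The midbrain IP had 0.085, 0 and 0 CPM of Cdh5 and the midbrain input 2.42, 0.975 and 1.63 CPM. The IP libraries held at most 7 counts each, far under the 27 to 126 counts of the inputs. Cdh5 fell by 3.46 on the log2 scale in the hypothalamus (SE 1.03, edgeR adjusted p = 0.022), and its log2 fold change was -5.79 in the midbrain (SE 1.18, edgeR adjusted p = 0.0030). The hypothalamus call was lost without hypothalamus IP replicate 1 (edgeR adjusted p = 0.0554), input replicate 2 (0.0501) or input replicate 3 (0.0573). Without midbrain IP replicate 1, which holds all 4 midbrain IP counts, the midbrain log2 fold change was -9.40.

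Pecam1 encodes the adhesion molecule PECAM-1 (CD31), which is also made by platelets and some leukocytes (chr11:106654217-106750628). It had 0.544, 0.643 and 0.0749 CPM in the hypothalamus IP, against 1.24, 0.501 and 0.745 CPM in the hypothalamus input. Its midbrain levels were 0.914, 0.288 and 0.275 CPM in the IP and 1.48, 0.788 and 1.51 CPM in the input. The groups overlapped in both regions. The log2 fold change was -0.97 in the hypothalamus (SE 0.81, edgeR adjusted p = 0.388) and -1.35 in the midbrain (SE 0.82, edgeR adjusted p = 0.225), and neither passed. Its residual share was 65.6%, 77.5% and 9.03% in the hypothalamus IPs, with the largest SD of the 10 genes there, and 72.5%, 22.8% and 21.8% in the midbrain IPs.

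Slco1a4 encodes an organic anion transporter (Oatp1a4) of brain endothelium, at chr6:141805440-141856199. It had 0, 0 and 0 counts in the hypothalamus IP, against 63, 110 and 104 counts in the hypothalamus input. Its midbrain counts were 14, 1 and 4 in the IP and 159, 104 and 184 counts in the input. Against the floor the hypothalamus IP was at least 31.4-fold lower, a residual share of at most 3.19% (edgeR adjusted p = 0.00044). Slco1a4 fell by 4.56 on the log2 scale in the midbrain (SE 0.86, edgeR adjusted p = 0.0027), where the residual share was 9.33%, 0.602% and 2.66%. Without midbrain IP replicate 1, the highest of the 3, the log2 fold change was -5.89. No count in any hypothalamus IP library was a feature of 3.08% of tested genes.

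Flt1 encodes VEGF receptor 1 (chr5:147561604-147726011). It had 0.0201, 0.0918 and 0.0187 CPM in the hypothalamus IP, against 2.08, 1.56 and 1.93 CPM in the hypothalamus input. Midbrain levels were 0, 0.422 and 0.275 CPM in the IP and 4.36, 2.63 and 2.67 CPM in the input. Flt1 fell by 5.32 on the log2 scale in the hypothalamus (SE 1.07, edgeR adjusted p = 0.0026) and by 3.77 in the midbrain (SE 0.94, edgeR adjusted p = 0.0091). Both calls held with each library left out in turn, and the values moved most without IP replicate 2, to -6.40 in the hypothalamus and -4.52 in the midbrain.

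Thbd encodes thrombomodulin, the endothelial cofactor through which thrombin activates protein C (chr2:148404466-148408188). It had 0.504, 1.18 and 0.0187 CPM in the hypothalamus IP, against 2.48, 2.81 and 1.55 CPM in the hypothalamus input. Its midbrain levels were 0.234, 0.096 and 0.127 CPM in the IP and 8.51, 8.71 and 2.84 CPM in the input. The hypothalamus IP libraries ranged from 1 to 64 counts, while those of the midbrain IP held 5 to 11. Thbd fell by 5.44 on the log2 scale in the midbrain (SE 1.01, edgeR adjusted p = 0.0017). In the hypothalamus its log2 fold change of -2.01 did not pass (SE 0.86, edgeR adjusted p = 0.0922). Blocked by replicate number it was -2.43 and passed (edgeR adjusted p = 0.0153), as it did without hypothalamus IP replicate 2 (-3.13, edgeR adjusted p = 0.0328).

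Cav1 encodes caveolin-1, the coat protein of endothelial caveolae (chr6:17306335-17341452). It had 0, 0 and 8 counts in the hypothalamus IP, against 270, 286 and 228 counts in the hypothalamus input. Its midbrain counts were 20, 17 and 81 in the IP and 477, 487 and 266 counts in the input. In CPM this was 0, 0 and 0.15 in the hypothalamus IP, against 5.68, 5.12 and 4.59 in the input. Cav1 fell by 6.60 on the log2 scale in the hypothalamus (SE 1.01, edgeR adjusted p = 0.00049), and its log2 fold change was -3.37 in the midbrain (SE 0.81, edgeR adjusted p = 0.0070). Without hypothalamus IP replicate 3, which holds all 8 counts, the hypothalamus log2 fold change was -10.99, and without midbrain IP replicate 3 the midbrain value was -4.50. The antisense gene Gm15581 overlaps Cav1, was not analysed here, and its reads cannot be told apart without a known strand setting.

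Of the mural genes, Pdgfrb encodes the PDGF receptor beta of pericytes. It had 0.322, 1.16 and 0.0749 CPM in the hypothalamus IP, against 6.80, 2.88 and 1.65 CPM in the hypothalamus input. Midbrain levels were 0.255, 1.65 and 0.952 CPM in the IP and 4.77, 3.65 and 2.67 CPM in the input. The IP and input groups did not overlap, and as a ratio the spread was widest among the 3 hypothalamus IPs. Pdgfrb fell by 2.86 on the log2 scale in the hypothalamus (SE 0.90, edgeR adjusted p = 0.028). In the midbrain its log2 fold change of -1.95 did not pass (SE 0.87, edgeR adjusted p = 0.103), although DESeq2 (adjusted p = 0.0431) and limma-voom (0.045) called it. The hypothalamus call was lost without hypothalamus IP replicate 1 (edgeR adjusted p = 0.0741), IP replicate 3 (0.0647) or input replicate 1 (0.113), and without replicate 1 in all 4 groups (0.18). Its log2 fold change there ran from -4.24 without IP replicate 2 to -2.12 without input replicate 1.

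Vtn encodes vitronectin, a secreted adhesion glycoprotein that brain pericytes make (chr11:78499091-78502324). It had 0, 0.735 and 0.375 CPM in the hypothalamus IP, against 6.48, 5.91 and 4.39 CPM in the hypothalamus input. In the midbrain it had 0.404, 2.51 and 1.46 CPM in the IP and 12.5, 11.6 and 6.79 CPM in the input. Vtn fell by 3.90 on the log2 scale in the hypothalamus (SE 0.91, edgeR adjusted p = 0.0063) and by 2.82 in the midbrain (SE 0.85, edgeR adjusted p = 0.023). The midbrain call was lost without midbrain IP replicate 1 (edgeR adjusted p = 0.0635), IP replicate 3 (0.0597), input replicate 1 (0.062) or input replicate 2 (0.0562). Without IP replicate 2 the log2 fold change was -4.86 in the hypothalamus and -3.46 in the midbrain.

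Abcc9 encodes SUR2, the sulfonylurea receptor subunit of the ATP-sensitive potassium channel of mural cells (chr6:142587862-142702315). It had 0.645, 0.0918 and 0.3 CPM in the hypothalamus IP, against 6.99, 3.29 and 2.76 CPM in the hypothalamus input. In the midbrain it had 3.95, 1.88 and 1.65 CPM in the IP and 5.17, 4.17 and 5.01 CPM in the input. Abcc9 fell by 3.65 on the log2 scale in the hypothalamus (SE 0.66, edgeR adjusted p = 0.0014), or by 4.46 without hypothalamus IP replicate 1. In the midbrain its log2 fold change of -0.94 did not pass (SE 0.59, edgeR adjusted p = 0.241), although the highest IP library lay below the lowest input library. The antisense genes Gm29682 at Cdh5 and 5330439B14Rik at Abcc9 had at most 2 counts in any library.

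**Figure D2:**
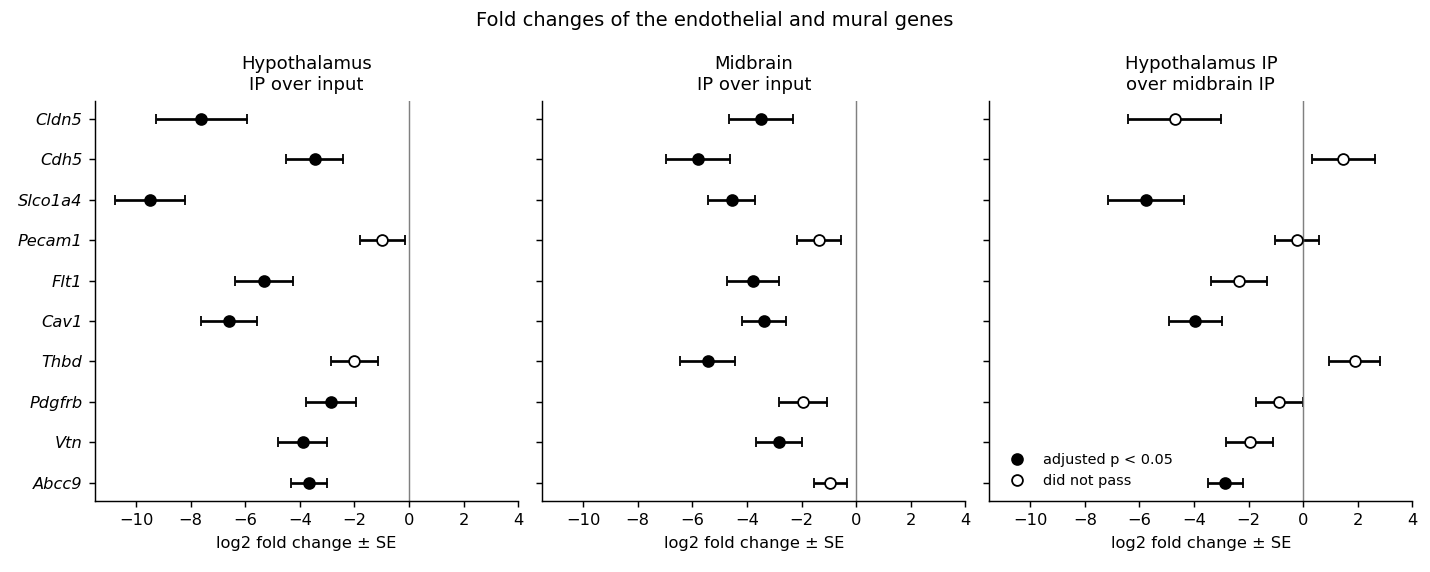
Log2 fold change ± SE (horizontal axis) of each gene in 3 comparisons; filled points passed an adjusted p of 0.05. The hypothalamus IP points of Cldn5 and Slco1a4 are fitted from libraries with no count and are not sizes; 8, 7 and 3 points are filled in the 3 panels.

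The mean residual shares ordered the genes differently in the 2 regions, but the regional difference in the effect of the IP passed for 0 of the 10 genes. In the hypothalamus IP Cldn5 and Slco1a4 had no count, which allows shares of up to 11.9% and 3.19%, so their places in the order are not known. The mean share was 0.974% ± 1.69 for Cav1, 2.34% ± 2.25 for Flt1 and 6.61% ± 6.57 for Vtn (SD, n = 3). Abcc9 kept 7.95% ± 6.42, Cdh5 8.78% ± 6.01, Pdgfrb 13.7% ± 15.0, Thbd 24.8% ± 25.5 and Pecam1 50.7% ± 36.6 (SD, n = 3). Neighbours among these 8 genes differed by less than their spread. In the midbrain IP the lowest shares were those of Cdh5 (1.69% ± 2.93), Thbd (2.28% ± 1.08) and Slco1a4 (4.20% ± 4.57), and the highest those of Pdgfrb (25.8% ± 18.9), Pecam1 (39.1% ± 29.0) and Abcc9 (52.2% ± 26.5; SD, n = 3). Between them lay Flt1 at 7.21% ± 6.65, Cldn5 at 8.76% ± 10.5, Cav1 at 9.65% ± 9.09 and Vtn at 14.2% ± 10.2 (SD, n = 3). Neighbours in the midbrain order also differed by less than their spread. The median over the 10 genes was 7.28% in the hypothalamus with Cldn5 and Slco1a4 at 0, or 8.36% with both at their bounds, and 9.20% in the midbrain.

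**Figure D3:**
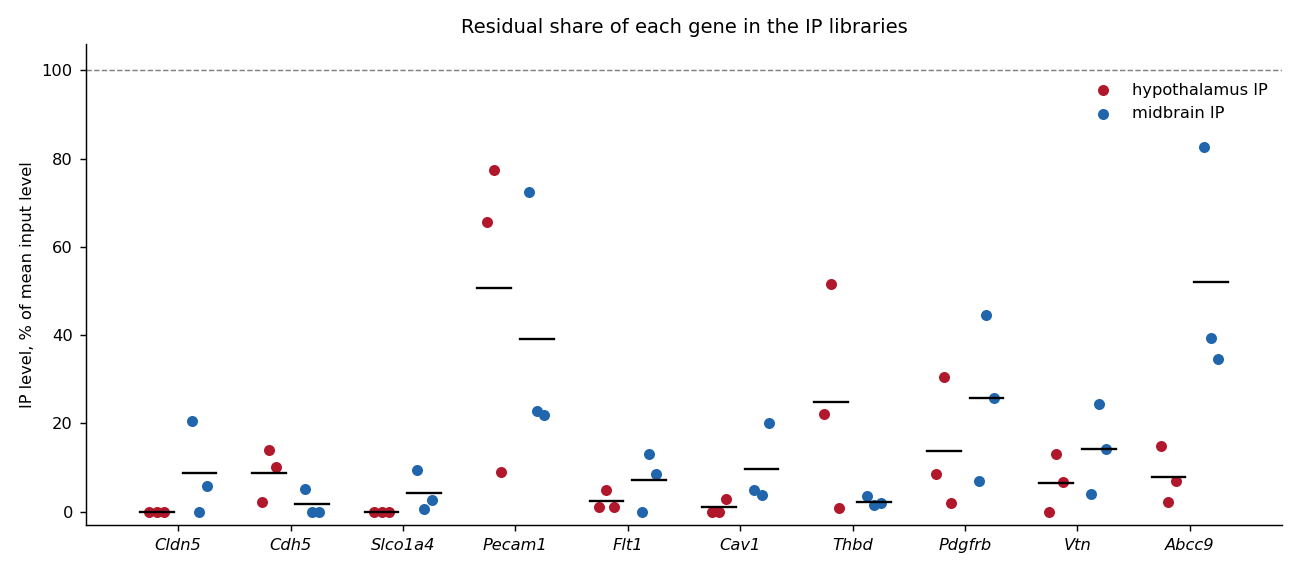
IP level in percent of the mean input level of the same region (vertical axis) for the 10 genes; each point is 1 IP library, black ticks are means of 3, and the dashed line marks the input level. No point reaches the line; the highest are Abcc9 in a midbrain IP and Pecam1 in IPs of both regions.

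Summed over the 10 genes, the hypothalamus IP held 2.05, 4.02 and 1.11 CPM, against 33.9, 25.9 and 21.2 CPM in its input. The midbrain IP held 6.72, 7.20 and 6.58 CPM, against 52.2, 45.5 and 34.5 CPM in its input. The summed residual share was thus 7.60%, 14.9% and 4.09% in the hypothalamus IPs and 15.2%, 16.3% and 14.9% in the midbrain IPs. Without hypothalamus IP replicate 2 the mean hypothalamus share was 5.85% in place of 8.86%, and the median over the 10 genes, with genes without a count at 0, was 4.31%. Against the input of the same number the summed share ran from 5.22% to 15.5% in the hypothalamus and from 12.9% to 19.1% in the midbrain. The endothelial genes alone kept 8.73% ± 6.34 in the hypothalamus and 7.61% ± 2.77 in the midbrain (SD, n = 3). The mural genes alone kept 8.99% ± 4.80 in the hypothalamus and 26.1% ± 5.45 in the midbrain (SD, n = 3). The 3 mural shares of the midbrain, 24.5%, 32.2% and 21.6%, lay above the 3 of the hypothalamus, 7.05%, 14.5% and 5.46%, and no test was made of such sums of chosen genes. Abcc9 alone gave 2.49 CPM of the mean mural sum of 4.91 CPM in the midbrain IP. Its shares were 82.6%, 39.3% and 34.5% there, against 14.8%, 2.11% and 6.90% in the hypothalamus. The shares of Pdgfrb and those of Vtn overlapped between the regions, so the separation of the mural sums depended on Abcc9.

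Single libraries differed in which vessel genes they kept. Among the 3 hypothalamus IPs, replicate 2 held the highest value of 6 genes (Cdh5, Pecam1, Flt1, Thbd, Pdgfrb and Vtn). Among the 3 midbrain IPs, replicate 1 held the highest value of 6 genes, Cldn5, Cdh5, Slco1a4, Pecam1, Thbd and Abcc9. It held the lowest midbrain IP value of Flt1, Pdgfrb and Vtn. The number of the 10 genes with no count was 4, 3 and 2 in the hypothalamus IPs and 1, 2 and 1 in the midbrain IPs, and 0 in every input.

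Per kilobase of exon, the input levels ordered the genes much alike in the 2 regions. In the hypothalamus input Vtn was highest at 2.76 ± 0.533 CPM per kilobase, followed by Cav1 at 1.49 ± 0.159 and Pdgfrb at 0.690 ± 0.491 (SD, n = 3). Flt1 and Pecam1 were lowest, at 0.138 ± 0.0201 and 0.133 ± 0.0606 CPM per kilobase. In the midbrain input Vtn had 5.08 ± 1.52, Cav1 2.47 ± 0.576 and Thbd 1.80 ± 0.895 CPM per kilobase, while Flt1 had 0.239 ± 0.0731 and Pecam1 0.202 ± 0.0658 (SD, n = 3). The means of neighbours in the order lay further apart than their summed SDs between Vtn and Cav1 in both inputs, between Cav1 and Pdgfrb in the hypothalamus input, and between Thbd and Pdgfrb in the midbrain input. In the IPs Vtn was again highest, at 0.182 ± 0.181 CPM per kilobase in the hypothalamus and 0.719 ± 0.520 in the midbrain, but there its mean did not stand apart from the next gene.

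Comparing the IPs with each other, 3 of the 10 genes were lower in the hypothalamus IP than in the midbrain IP, namely Slco1a4, Cav1 and Abcc9, beside 2.21% of genes tested that were called lower. In either direction 773 genes were called between the IPs, or 2024 in the fit blocked by replicate number, which called the same 3 members. The same 3 genes had each hypothalamus IP library below each midbrain IP library, which held for 8.52% of genes tested. Abcc9 fell by 2.85 on the log2 scale (SE 0.64, edgeR adjusted p = 0.029) and Cav1 had a log2 fold change of -3.96 (SE 0.97, edgeR adjusted p = 0.041). For Slco1a4 the mean of the midbrain IPs lay 2.34-fold above the floor of the hypothalamus IPs (edgeR adjusted p = 0.047). That mean was led by replicate 1 (0.298, 0.0192 and 0.0846 CPM), and replicate 2, with 1 count, lay under the floor. The bound therefore does not hold for each library. Flt1 (-2.34) and Vtn (-1.97) had negative log2 fold changes and Thbd (1.88) and Cdh5 (1.47) positive ones, none of which passed. These calls rested on few counts and on single libraries. With each of the 12 libraries left out in turn, that of Abcc9 held in 9 cases, that of Cav1 in 3 and that of Slco1a4 in 1. The log2 fold change of Cav1 was -8.35 without hypothalamus IP replicate 3 and -2.83 without midbrain IP replicate 3, and that of Abcc9 -3.66 without hypothalamus IP replicate 1. No call was left without hypothalamus IP replicate 2, and limma-voom kept that of Abcc9 alone.

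Some markers of other cells passed in the same comparison too. Of the astrocyte markers 1 of 7 (Aqp4) was lower in the hypothalamus IP and of the oligodendrocyte markers 2 of 6 (Mog and Mobp). Over all genes tested 2.21% were called lower. None of 7 microglial, 6 blood-cell and 7 neuronal markers passed in that comparison. The summed astrocyte level was 9.37 to 12.6 CPM in the hypothalamus IP and 14.7 to 26.6 CPM in the midbrain IP. The summed oligodendrocyte level was 119.9 to 139 CPM in the hypothalamus IP and 166 to 238 CPM in the midbrain IP, and the neuronal sum was 17215 to 21924 CPM in the hypothalamus IP and 22023 to 28144 CPM in the midbrain IP. Those 3 sums did not overlap between the IPs. Between the inputs the oligodendrocyte sum, 1113 to 1893 CPM in the hypothalamus and 2248 to 3207 CPM in the midbrain, did not overlap either. There 2 of the 6 oligodendrocyte markers were called lower in the hypothalamus and 0 higher, beside 0.601% of genes tested called lower. The neuronal input sum, at 8654 to 11647 CPM in the hypothalamus and 15405 to 16855 CPM in the midbrain, did not overlap between the regions. The astrocyte input sums, 195 to 458 CPM and 257 to 449 CPM, overlapped. The microglial sum, 1.45 to 2.14 CPM in the hypothalamus IP and 2.05 to 4.95 CPM in the midbrain IP, overlapped. So did the blood-cell sum, at 1.16 to 2.66 CPM in the hypothalamus IP and 0.317 to 1.38 CPM in the midbrain IP. The part of these cells in the vessel-gene result was not tested.

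Between the inputs 0 of 10 members passed, where 1.61% of genes were called in either direction, 0 reached an unadjusted p of 0.05 by edgeR, and DESeq2 and limma-voom called 0 too. The number of genes called between the inputs was 291, or 1097 in the fit blocked by replicate number. The log2 fold change of hypothalamus input over midbrain input was negative for 9 of 10 genes, with a median of -0.76, beside 0.01 over the genes tested. For 5 genes (Slco1a4, Flt1, Cav1, Thbd and Vtn) each hypothalamus input lay below each midbrain input, as did 10.2% of genes tested. Thbd had the largest such difference (-1.55, SE 0.83, edgeR adjusted p = 0.548). The regional difference in the effect of the IP, tested as an interaction, passed for 0 of 10 genes, beside 0.0772% of genes tested. At an unadjusted p below 0.05, 4 members were counted in it by edgeR, beside 6.56% of genes tested: Abcc9 (-2.71, SE 0.85, adjusted p = 0.436), Slco1a4, Cav1 and Thbd (3.44, SE 1.24, adjusted p = 0.567). So a member called in 1 region and not in the other, such as Abcc9, was not shown to differ between them.

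Of 94 further vascular genes in 11 lists, 93 were tested. In the hypothalamus IP 46 fell, 2 rose and 45 did not pass, where 19.6% of genes tested fell and 14.2% rose. The median log2 fold change was -2.60, or -2.34 with genes without an IP count at their bounds. In the midbrain IP 51 fell, 1 rose and 41 did not pass, where 19.9% of genes tested fell and 14% rose, and the median was -2.54, or -2.52 at the bounds. These shares are also the background of the counts for each list below. No count in any IP library was found for 8 of the 93 in the hypothalamus, among them Icam2, Ly6c1 and Higd1b, beside 3.08% of genes tested. In the midbrain this held for 3 of the 93 (Icam2, Dll4 and Erg), near the 2.82% of genes tested. Some of these genes, such as Nrp1, Tfrc and Epas1, are also made by neurons or glia, so the lists do not hold vascular markers alone. The part of such cells in these counts was not tested.

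**Figure D4:**
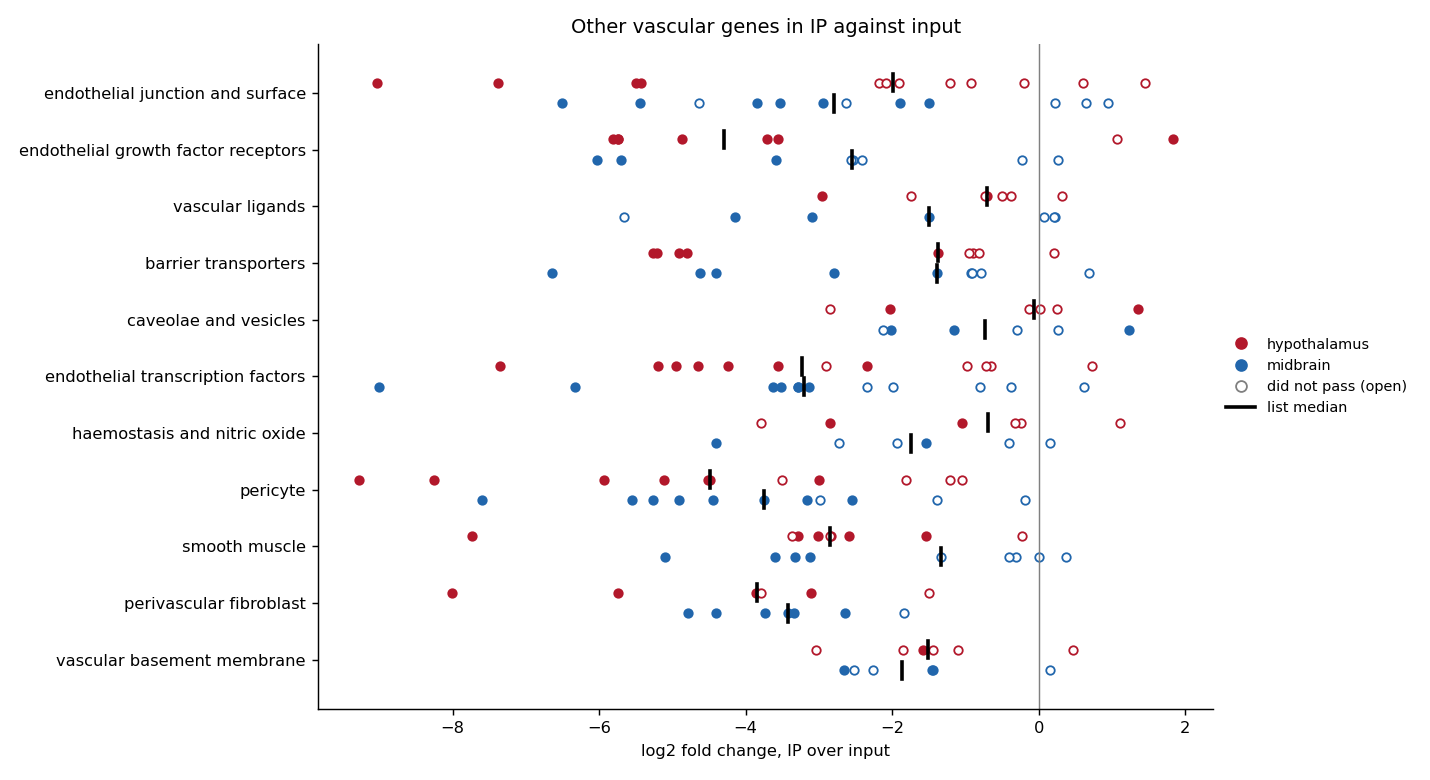
Log2 fold change of IP over input (horizontal axis) for each tested gene of the 11 vascular lists, hypothalamus above midbrain in each row; filled points passed, open points did not, and black ticks are list medians. Points of genes with no IP count in that region are fitted values and not sizes. Most filled points lie left of 0, and the 2 filled hypothalamus points and 1 midbrain point on the right are Flt4 and Plvap.

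Among junction and surface genes 4 of 12 fell in the hypothalamus IP and 7 of 12 in the midbrain IP. Jam2, a junctional adhesion molecule, fell in the midbrain (log2 fold change -1.49, SE 0.35, edgeR adjusted p = 0.0060) and had -0.93 in the hypothalamus without passing. Itm2a, a transmembrane protein, did not pass in either region, at -0.20 and 0.23. Of the growth factor receptors 6 of 8 fell in the hypothalamus and 3 of 8 in the midbrain. S1pr1, the sphingosine-1-phosphate receptor of endothelium and astrocytes, had 0.201, 0.147 and 1.31 CPM in the hypothalamus IP, against 55.5, 17.8 and 20.9 CPM in its input, and fell in both regions (log2 fold change -5.82 and -3.59). Nrp1, a co-receptor for VEGF and semaphorins that neurons also carry, did not pass (1.07 and -0.23). Flt4, the VEGF receptor 3, rose in the hypothalamus (1.83, SE 0.59, edgeR adjusted p = 0.030); it was named after its values were seen, and 10.5 CPM in replicate 1 stood beside 2.64 and 2.34 CPM in the other hypothalamus IPs.

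Of the ligands 2 of 7 fell in the hypothalamus and 3 of 7 in the midbrain. Apln, the ligand apelin, fell in both regions (log2 fold change -2.95 and -4.14), with 1.09, 2.06 and 2.10 CPM in the hypothalamus IP, against 16.6, 11.1 and 13.0 CPM in its input. Vegfa, the growth factor that acts on Flt1, fell by 0.71 on the log2 scale in the hypothalamus (edgeR adjusted p = 0.013) and had a log2 fold change of -1.50 in the midbrain (edgeR adjusted p = 0.00017). Barrier transporters fell in 5 of 9 tested genes in the hypothalamus and 6 of 9 in the midbrain. Slc2a1, the glucose transporter GLUT1, had -0.95 in the hypothalamus without passing and fell in the midbrain (-1.39, edgeR adjusted p = 0.031). Tfrc, the transferrin receptor, which neurons also make, fell in both (-1.38 and -0.93).

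Of the other genes of caveolae and endothelial vesicles, 1 of 6 fell and 1 rose in the hypothalamus, a share near that of all genes tested, and in the midbrain 2 fell and 1 rose, with list medians of -0.06 and -0.73. Cav2, the caveolin that pairs with Cav1, had 10.5, 19.6 and 17.7 CPM in the hypothalamus IP, against 15.2, 11.5 and 13.5 CPM in its input, and did not pass in either region (0.25 and 0.26). Prkcdbp, the older symbol of cavin-3, did not pass either (-0.14 and -0.30). Plvap, a diaphragm protein of fenestrated endothelium, was the gene that rose in both regions (1.35 with edgeR adjusted p = 0.0011, and 1.24 with 0.0020) and was named after its values were seen. It had 15.5, 15.2 and 11.9 CPM in the hypothalamus IP, against 6.40, 5.33 and 4.93 CPM in its input. In the midbrain Plvap had 17.4, 15.6 and 10.9 CPM in the IP and 5.98, 6.90 and 5.72 CPM in the input, so the groups did not overlap in either region.

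Of the endothelial transcription factors 7 of 12 fell in each region. Epas1 (HIF-2 alpha), which astrocytes and mural cells also make, fell by 4.24 in the hypothalamus (SE 0.25) and 3.51 in the midbrain (SE 0.24) on the log2 scale. Lef1, a Wnt effector, did not pass (0.72 and 0.62). Of the haemostasis genes 2 of 6 fell in each region, Plat (tissue plasminogen activator) in both (-1.05 and -1.54) and Tfpi in the hypothalamus (-2.85). In the pericyte list 7 of 11 fell in the hypothalamus and 8 of 11 in the midbrain. Rgs5, a pericyte regulator of G-protein signalling, had 0.463, 0.551 and 0.599 CPM in the hypothalamus IP, against 9.998, 14.4 and 12.8 CPM in its input, and fell in both regions (-4.52 and -2.54). Cspg4 (NG2), which oligodendrocyte precursors also make, fell by 4.48 in the hypothalamus and by 4.92 in the midbrain on the log2 scale.

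Smooth muscle genes fell in 6 of 9 cases in the hypothalamus and 4 of 9 in the midbrain. Acta2, smooth muscle actin, fell in both (-3.28 and -3.33), while Mylk, myosin light chain kinase, did not pass (-0.23 and 0.37). Perivascular fibroblast genes fell in 5 of 7 and 6 of 7 cases, Dcn (decorin) by 3.84 and 3.34 and Igf2 by 5.74 and 4.78 on the log2 scale. Basement membrane genes fell in 1 of 6 cases in the hypothalamus, a share near that of all genes tested, and in 3 of 6 in the midbrain. Of these, Col4a2 did not pass (0.47 and 0.15), and Lamc1, a laminin chain, fell in the midbrain (-1.44, edgeR adjusted p = 0.023) with -1.11 in the hypothalamus.

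Between the IPs 4 of the 93 vascular genes were lower in the hypothalamus (Ly6c1, Mfsd2a, Epas1 and Rgs5) and 0 were higher, beside 2.21% of genes tested called lower and 2.05% higher. Mfsd2a, the lipid transporter of the blood-brain barrier, had 0.443, 0.0367 and 0.169 CPM in the hypothalamus IP, against 1.53, 2.03 and 0.444 CPM in the midbrain IP. Rgs5 had 2.36, 3.95 and 1.65 CPM in the midbrain IP, each above the 3 hypothalamus IP values given above (log2 fold change -2.30, SE 0.34, edgeR adjusted p = 0.0029). Between the inputs Apln and Tal1 were the 2 genes called, both lower in the hypothalamus, beside 0.601% of genes tested called lower. Ly6c1, Mfsd2a and Tal1, like Icam2, Higd1b, Dll4 and Erg above, were named after their values were seen.

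The summed residual share of the vessel genes can be set beside that of other cell types. All 7 astrocyte, 6 oligodendrocyte and 7 microglial markers fell in both regions, and 5 of 6 blood-cell and platelet markers did. In the hypothalamus IP the astrocyte sum kept 3.95% ± 0.625, the oligodendrocyte sum 8.75% ± 0.667, the microglial sum 4.06% ± 0.803 and the blood-cell sum 9.71% ± 4.36, beside 8.86% ± 5.51 for the 10 members (SD, n = 3). In the midbrain IP the values were 6.43% ± 1.82, 6.85% ± 1.36, 6.30% ± 2.56 and 6.47% ± 3.82, beside 15.5% ± 0.737 for the members (SD, n = 3). In the hypothalamus the members' range, 4.09% to 14.9%, overlapped that of each of the 4 lists. In the midbrain the 3 member values, 14.9% to 16.3%, lay above the 12 values of the other 4 lists. That did not hold for the 7 endothelial members alone, whose midbrain shares of 8.32%, 4.56% and 9.96% overlapped each of the 4 lists. The 3 mural members stood at 24.5%, 32.2% and 21.6% there, a sum led on average by Abcc9. The other pericyte genes kept 7.28% ± 3.78 in the hypothalamus and 11.7% ± 0.927 in the midbrain, and perivascular fibroblast genes 3.05% ± 0.989 and 4.84% ± 2.08 (SD, n = 3). Every other vascular list kept more than these. Smooth muscle genes kept 43.6% ± 25.8 in the hypothalamus and 69.7% ± 39.9 in the midbrain (SD, n = 3). The lowest means of those lists were 21.0% in the hypothalamus (transcription factors) and 32.9% in the midbrain (ligands), and the highest 109% and 98.5% (caveolae). Among the other-cell markers C1qa had no count in the hypothalamus IP. The neuronal sum stood at 196% ± 23.6 of its input in the hypothalamus and at 154% ± 18.8 in the midbrain (SD, n = 3). Differences between lists were not tested.

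**Figure D5:**
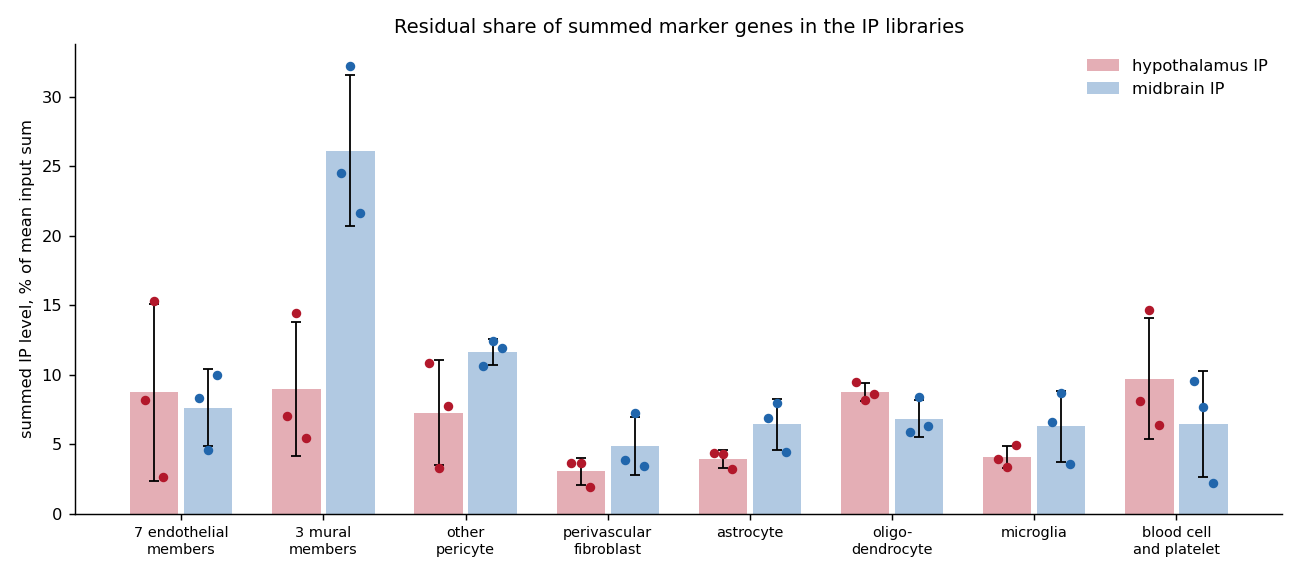
Summed IP level in percent of the mean summed input level (vertical axis, from 0) for the endothelial and mural members and for markers of other cells; bars are means, error bars SD and points the 3 IP libraries. The mural members in the midbrain stand at 26.1%, and the other bars lie between 3.05% and 11.7%. The remaining vascular lists, among them smooth muscle, are not drawn and had higher mean shares than the bars of the same region.

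Genes whose profile was most like the mean of the 10 members were sought among 10545 genes with at least 5 CPM in the inputs, by the root mean square difference of log2 (CPM + 0.5) over the 12 libraries. The closest were Gpam (0.168), Mcc (0.193), Acap2 (0.210), Tmem229a (0.221) and Rassf2 (0.231). Gpam averaged 4.12 CPM in the hypothalamus IP and 21.4 CPM in its input, and 5.73 and 25.4 CPM in the midbrain IP and input. Most members did not reach 5 CPM in the inputs themselves, and the added 0.5 makes falls at such low levels look smaller. A close profile by this measure is thus not an equal residual share. Set against the mean of the other 9, Flt1 lay closest (0.278) and Pecam1 furthest (0.815).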

How the data were processed

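RNA was sequenced from IP and input of the hypothalamus and the midbrain of JX883 mice, 12 libraries in all. The deposited values are raw read counts per gene symbol, whole numbers that the authors had not normalised. The submitters' processing notes name STAR 2.0.0e, HTSeq and mm10. The annotation, strand setting and counting mode were not stated in the sources used here. The 5 summary rows and a row named unknown (at most 7 counts) were left out.

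The 10 genes and the lists were chosen with earlier results of these data known. Groups came from the labels. Genes were filtered with filterByExpr and tested in R 4.3.3 with edgeR 4.0.16 (TMM, robust quasi-likelihood F test) in a single fit of the 4 group means, for 5 comparisons. The Benjamini-Hochberg adjusted p over 18128 genes had to lie under 0.05. Named genes were the 10 members, the 5 most alike genes, the 2 genes of each list with the highest mean input level, other-cell markers and Slc17a6. An oligodendrocyte marker is not reported here and was left out of that list and its sums. A fold against a group without counts is a bound against 3 counts per library. Exon lengths and coordinates came from GENCODE M21. The test was also run on simulated data with changes planted in random genes, the same spread for every gene and no link between same-numbered libraries. That run did not check the test for the members, whose IP counts are low and uneven.

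Deviations of same-numbered libraries from their group means correlated at 0.155 to 0.324 between hypothalamus IP and input, 0.113 to 0.301 between the IPs and 0.141 to 0.379 between the inputs, each pair over 0.1, the value above which the numbers were taken to pair libraries. Between midbrain IP and input they correlated at 0.0754 to 0.189, with 1 pair under 0.1, while differently numbered libraries there correlated at -0.141 to -0.0252. The main fit still left replicate number out, because the labels do not say that it marks an animal or batch. Adjusted p-values are from that unpaired fit unless the replicate block or another alternative is named. All IPs carried the same index and all inputs another, so fraction and index cannot be told apart. IP and input of a region with the same replicate number also shared a lane number. For replicates 1, 2 and 3 it was 7, 6 and 2 in the hypothalamus and 8, 7 and 3 in the midbrain. Within a replicate number, region and lane thus cannot be told apart. The alternatives were DESeq2 1.42.0 and its size factors, limma-voom (limma 3.58.1), library size alone, no filter, the replicate block, leaving out Rn45s, and leaving out each library. Leaving out replicate 1 in all groups was chosen after seeing the data.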

Additional observations from a re-analysis of the deposited data

How the results depend on the processing

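The counts of members called lower kept within 1.5 times of 8 in the hypothalamus and 7 in the midbrain under each of the 20 alternatives (6 to 9 and 5 to 7 with libraries left out). Of 200 member results per comparison, the call changed in 11 in the hypothalamus, 16 in the midbrain and 27 between the IPs, and in none between the inputs or in the regional difference. Members lower between the IPs numbered 3, but 1 with limma-voom and 0 to 3 with libraries left out. With the replicate block the numbers of members called were 9 in the hypothalamus, 7 in the midbrain, 3 between the IPs and 0 in the other comparisons; Thbd in the hypothalamus was the call it changed. Over all genes, the regional difference called 14, against 213 with DESeq2, 8 with limma-voom, 105 with the replicate block and 8 to 33 with libraries left out. Between the IPs 773 genes were called, against 1800 with DESeq2, 2024 with the replicate block and 373 to 758 with 1 library left out, and 834 without replicate 1 in all groups. Between the inputs 291 were called, against 777, 1097 and 93 to 364.

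The midbrain summed residual share of 15.5% was 14.7% with library size alone and 13.99% to 17.1% with 1 library left out (17.2% without replicate 1 in all groups), and the midbrain median of 9.20% was 12.8% without replicate 1 in all groups. Thbd in the hypothalamus passed with DESeq2 (adjusted p = 0.0349) and limma-voom (0.0393), and Cldn5 in the midbrain did not pass without the filter (0.0593). Sign changes were limited to values that did not pass. Between the IPs, Pecam1 (-0.23) was 0.57 without midbrain IP replicate 1, 0.27 without hypothalamus IP replicate 3 and 0.35 without replicate 1 in all groups. With 1 library left out that value ran from -0.67 to 0.57. Its regional difference (0.38) was -0.065 without hypothalamus IP replicate 2, at most 1.18 with 1 library left out, and 1.23 without replicate 1 in all groups. Between the inputs, Pdgfrb (0.03) was -0.21 with limma-voom, -0.036 with the replicate block, -0.71 without hypothalamus input replicate 1, -0.16 without midbrain input replicate 3 and -0.48 without replicate 1 in all groups, and at most 0.33 with 1 library left out. Abcc9 (-0.14) was 0.028 and 0.036 without hypothalamus input replicate 2 and 3, and -0.66 at the least. The cause of these changes was not tested. Library size alone moved the all-gene median of the hypothalamus comparison to a log2 fold change of -0.25, against -0.08, and the split there to 1632 higher and 4011 lower, against 2576 and 3547. Counts of 0 to 20 in most IP libraries limit the precision of single members.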
